A study of Rattus norvegicus with 3 samples.

Results

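Motor proteins that walk along microtubules, together with the subunits and adaptors that switch them on, were followed through the life of the enamel-forming cell. The set holds every gene of the comparison table whose symbol names a kinesin, a kinesin light chain, a chain of cytoplasmic dynein, a dynactin subunit, a Bicd adaptor, or the regulators Pafah1b1 (Lis1), Nde1 and Ndel1. It came to 68 of 16516 genes. By known function they were split into 12 mitotic kinesins, 31 other kinesins and light chains, and 25 genes of dynein, dynactin and their regulators. The 31 are here called interphase kinesins and include Kif1bp, a kinesin-binding protein that is no motor itself. The class holds what was left of the kinesin genes, and some of these may also act in dividing cells.

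RNA had been sequenced from 3 populations of the enamel organ in rats of the Wistar Hannover strain. They were cervical loop cells, from the zone where the dental epithelium is renewed, secretory ameloblasts, which lay down enamel matrix, and maturation ameloblasts, which remove it while mineral fills the space. The tissue came from 5 rats. Only RNA with an integrity number of 7 or more was made into libraries, which removed the cervical loop library of 1 rat. No age, sex, genotype or treatment is given for any stage. The zones were dissected, not sorted, so each stage can hold other cells of the enamel organ and its surroundings.

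Every stage is represented by 1 deposited mean per gene, called the authors' mean here, and no spread between rats can be set beside it. The authors' means carry no stated unit or length correction, so levels are compared between stages of 1 gene and not between genes. The spread between rats is felt only in the deposited p-values. A gene is said to have risen or fallen where its false discovery rate (FDR, Benjamini-Hochberg over all 16516 genes) is under 0.05, with the direction taken from the stage means. The sum of all means was 436717 in the cervical loop, 612568 in the secretory and 484343 in the maturation stage, and the upper quartile lay between 22.6 and 22.8. The stage markers were highest in the stages they are known for: Amelx, the main enamel matrix gene, stood at 1152 in cervical loop cells, 37121 in secretory and 217 in maturation ameloblasts, and Odam at 29.3 in cervical loop cells, 127 in secretory and 3159 in maturation ameloblasts. In bulk tissue, fewer cells of a type and less RNA per cell cannot be told apart. The 3 pairs of stages share their means and are not independent of one another.

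Kinesins mostly step towards the plus ends of microtubules, which in polarised epithelia face the base of the cell, while dynein, with its activator dynactin, steps towards the minus ends. Mitotic kinesins build and shorten the spindle and complete cell division. Interphase kinesins and dynein move vesicles, endosomes, the Golgi and cilium components, and ameloblasts depend on such traffic both to export matrix and to take it back. Lis1, Nde1 and Ndel1 load dynein, and Bicd-type adaptors join it to dynactin and cargo.

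Promoter sequence is shown for 4 mitotic kinesins because the class moved together between stages. RefSeq windows on build GRCr8, 250 bases before to 50 bases after the start, matched 50 of the 68 genes. The windows were searched on both strands for TTTGAA, the core of the cell cycle genes homology region (CHR), an element known from promoters of late cell cycle genes, and for CCAAT, the box bound by NF-Y. In the windows shown, no match overlaps another. TTTGAA was found for 6 of 11 mitotic kinesins with a window (54.5%), 1 of 22 interphase genes (4.55%), 2 of 17 dynein and dynactin genes (11.8%) and in 18.3% of 33469 windows of all genes. CCAAT was found for 7 of 11 mitotic kinesins (63.6%), 7 of 22 interphase genes (31.8%), 8 of 17 dynein and dynactin genes (47.1%) and in 37.5% of all windows. A motor gene counted if any of its windows matched (53 windows for the 50 genes), whereas the share over all genes is per window. The sequences below are those of mitotic kinesins whose window held exactly 1 TTTGAA and at least 1 CCAAT, read from 5′ to 3′ along the gene, with these motifs or their reverse complements in capitals. They are Kif22 (chr1:191080829-191081128, minus strand), Kif23 (chr8:71320535-71320834, minus strand), Kif4a (chrX:69761633-69761932, plus strand) and Kifc1 (chr20:5000679-5000978, plus strand).
Kif22: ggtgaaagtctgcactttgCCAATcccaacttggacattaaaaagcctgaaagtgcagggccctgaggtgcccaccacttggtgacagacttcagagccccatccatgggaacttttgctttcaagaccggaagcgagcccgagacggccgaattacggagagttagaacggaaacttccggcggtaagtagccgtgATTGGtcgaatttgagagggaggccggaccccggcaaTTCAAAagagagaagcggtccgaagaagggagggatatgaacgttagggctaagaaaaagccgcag
Kif23: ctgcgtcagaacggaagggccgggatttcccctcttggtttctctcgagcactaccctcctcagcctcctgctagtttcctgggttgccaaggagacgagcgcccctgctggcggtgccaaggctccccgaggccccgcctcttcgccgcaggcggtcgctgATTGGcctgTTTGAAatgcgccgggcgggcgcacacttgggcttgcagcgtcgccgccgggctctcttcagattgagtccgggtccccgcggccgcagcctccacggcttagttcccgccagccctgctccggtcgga
Kif4a: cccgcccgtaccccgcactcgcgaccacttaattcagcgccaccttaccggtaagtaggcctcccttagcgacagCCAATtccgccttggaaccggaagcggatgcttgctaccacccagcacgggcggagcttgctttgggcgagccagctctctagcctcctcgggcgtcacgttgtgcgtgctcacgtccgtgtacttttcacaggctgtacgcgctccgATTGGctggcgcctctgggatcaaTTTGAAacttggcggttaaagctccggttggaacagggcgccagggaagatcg
Kifc1: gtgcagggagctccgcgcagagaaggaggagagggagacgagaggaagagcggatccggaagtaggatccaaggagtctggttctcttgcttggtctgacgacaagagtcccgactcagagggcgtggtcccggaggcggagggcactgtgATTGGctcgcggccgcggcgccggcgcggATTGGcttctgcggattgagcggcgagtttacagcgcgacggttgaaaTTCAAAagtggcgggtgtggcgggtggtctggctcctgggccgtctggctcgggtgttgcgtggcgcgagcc
The TTTGAA match began 16 bases before the start in Kif22, 79 in Kif23, 3 in Kif4a and 22 in Kifc1, and a CCAAT match lay upstream of it in each. These are matches of letters and were not tested as binding sites.

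All 12 mitotic kinesins were lower in secretory ameloblasts than in cervical loop cells, where 25.2% of all genes fell and 41.8% changed in either direction. The means were 5.72-fold to 11.2-fold lower. The median log2 ratio was -2.96, against -0.14 over all genes. Kif2a, a microtubule depolymerase, was counted with the interphase kinesins. It was 1.13-fold lower in this pair and did not pass (FDR = 0.0597 per the authors' deposited table). Kif2c, which takes microtubules apart at the centromere, stood at 21.1 in cervical loop cells, 1.88 in secretory and 1.94 in maturation ameloblasts, 11.2-fold lower (FDR = 0.000357) in secretory than in cervical loop cells per the authors' deposited table. Kif11, whose motor pushes the spindle poles apart, stood at 53.1 in cervical loop cells, 6.65 in secretory and 6.82 in maturation ameloblasts, 7.98-fold lower (FDR = 0.000424) in secretory than in cervical loop cells per the authors' deposited table. Both genes were high in the cervical loop alone and nearly level between the later stages. Kif15, which works beside Kif11, stood at 33.0 in cervical loop cells, 4.16 in secretory and 2.90 in maturation ameloblasts. The chromosome-bound motor gene Kif22 stood at 32.9 in cervical loop cells, 3.84 in secretory and 4.86 in maturation ameloblasts, and Kif4a at 24.9 in cervical loop cells, 3.26 in secretory and 2.64 in maturation ameloblasts. Kif15, Kif22 and Kif4a were 7.95-fold, 8.56-fold and 7.64-fold lower in secretory than in cervical loop cells, with FDRs of 0.000623, 0.000424 and 0.000588 per the authors' deposited table.

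Motors of chromosome alignment and of cytokinesis did the same. Kif18a and Kif18b, which damp the movement of chromosomes and shorten spindle microtubules, stood at 11.8 in cervical loop cells, 1.90 in secretory and 2.25 in maturation ameloblasts, and at 18.1 in cervical loop cells, 2.02 in secretory and 2.07 in maturation ameloblasts. Kif23, the motor of centralspindlin in the dividing cell's midzone, stood at 31.2 in cervical loop cells, 4.41 in secretory and 3.31 in maturation ameloblasts. Kif20a, which brings the Aurora B complex to the midzone, stood at 42.7 in cervical loop cells, 7.48 in secretory and 6.15 in maturation ameloblasts. The relative Kif20b stood at 22.0 in cervical loop cells, 2.73 in secretory and 2.09 in maturation ameloblasts, and Kifc1, the minus-end motor that gathers spindle poles, at 22.7 in cervical loop cells, 3.19 in secretory and 2.98 in maturation ameloblasts. In this group the secretory and maturation means were close to each other and far below the cervical loop mean. Kif20b was 8.05-fold lower (FDR = 0.000670) and Kif20a 5.72-fold lower (FDR = 0.000424) in secretory than in cervical loop cells per the authors' deposited table. Against the cervical loop, all 12 were also lower in maturation ameloblasts (33.7% of all genes fell in this pair, and 57.8% changed). The means were 1.93-fold to 11.4-fold lower, the smallest being that of Kif14.

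Kif14, needed at the midbody for the last step of division, was the exception among mitotic kinesins. It stood at 11.8 in cervical loop cells, 1.60 in secretory and 6.14 in maturation ameloblasts. It was the only 1 of the 12 to change between maturation and secretory ameloblasts, 3.83-fold higher (FDR = 0.00104) per the authors' deposited table, in a pair where 42.9% of all genes changed and 21.8% rose. Its maturation mean stayed 1.93-fold lower (FDR = 0.0108) than that of the cervical loop per the authors' deposited table. Of the other 11, Kif22, Kif18a, Kif11, Kif2c and Kif18b had maturation means above the secretory ones and 6 below, and none passed, with FDRs from 0.118 (Kif15) to 0.924 (Kif11) per the authors' deposited table.

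**Figure D1:**
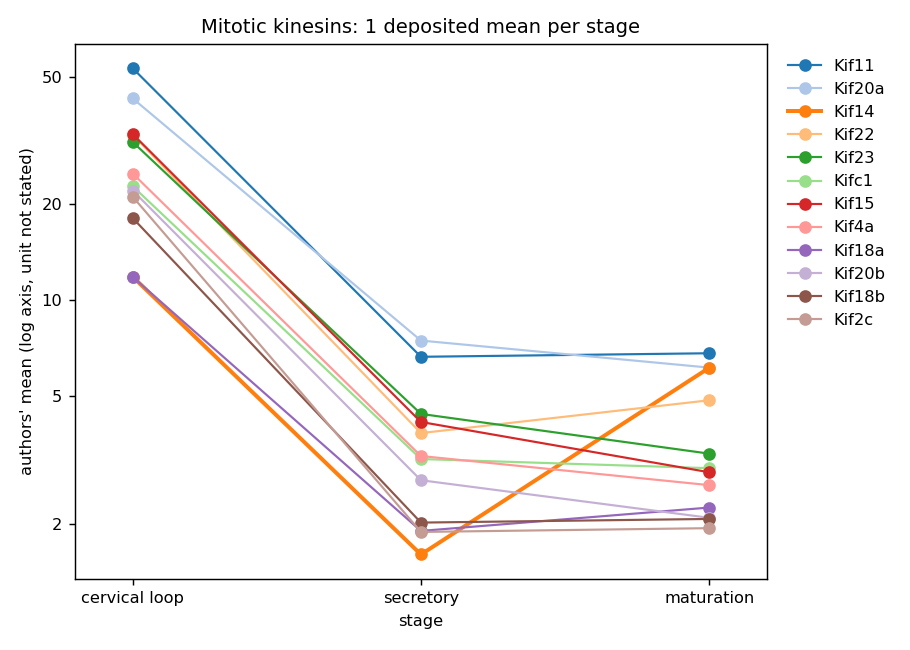
Authors' mean (log axis, unit not stated) of the 12 mitotic kinesins in cervical loop cells, secretory and maturation ameloblasts; each line is 1 gene and each point 1 deposited mean, with no error available. All 12 lines drop between the cervical loop and secretory stages, and Kif14 (thick line) is the only gene past the threshold between maturation and secretory ameloblasts, standing at 6.14 in maturation against 1.60 in secretory ameloblasts.

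Genes that work with these motors moved in the same way. Of 25 partners, such as Aurora kinases, centralspindlin and kinetochore genes, 0 rose and 24 fell in secretory against cervical loop cells. The median log2 ratio was -2.57, and 25.2% of all genes fell in this pair. Numa1, which holds dynein at the spindle poles, was the member that did not pass (121 in secretory and 116 in cervical loop cells, FDR = 0.369 per the authors' deposited table). Cenpe, a kinesin of the kinetochore whose symbol does not fall under the rule, stood at 42.7 in cervical loop cells, 7.19 in secretory and 5.80 in maturation ameloblasts. The proliferation marker Mki67 stood at 289 in cervical loop cells, 38.8 in secretory and 35.3 in maturation ameloblasts. Between maturation and secretory ameloblasts 3 of the 25 partners rose and 3 fell, a smaller share than the 42.9% of all genes that changed. The median log2 ratio of the partners in that pair was -0.13, against 0.005 over all genes. Incenp, of the Aurora B complex, rose like Kif14, standing at 30.5 in cervical loop cells, 6.63 in secretory and 15.6 in maturation ameloblasts, 2.36-fold higher (FDR = 0.00181) in maturation than in secretory ameloblasts per the authors' deposited table, while Mki67 did not pass in that pair (FDR = 0.586). Beside the Kif14 difference, 7 of 8 measured myeloid markers also rose between these stages, where 21.8% of all genes rose. The sum of these markers was 693 in maturation and 199.99 in secretory ameloblasts. Their part in the result was not tested.

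Interphase kinesins changed in both directions between secretory ameloblasts and cervical loop cells. In this class 10 of 31 genes rose and 11 fell, leaving 10 that missed the threshold. That is 67.7% changed, against 41.8% of all genes, with 16.5% of all genes rising. Their median log2 ratio was -0.02. Among the 12 mitotic kinesins 0 rose in this pair.

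**Figure D2:**
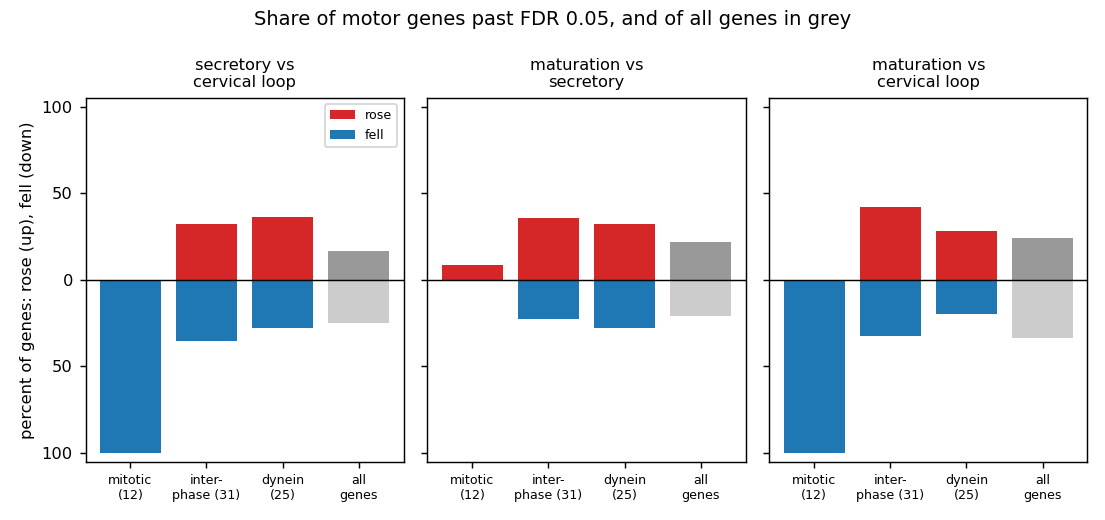
Percent of genes in each class past an FDR of 0.05 in each pair of stages, with genes that rose drawn upwards and genes that fell drawn downwards; grey bars give the same for all 16516 genes. The mitotic class falls as a whole against the cervical loop, whereas the interphase class (10 rose and 11 fell in secretory against cervical loop cells) and the dynein class (9 rose and 7 fell) extend both ways.

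The 4 largest increases in secretory ameloblasts were those of Kifc3, Kif26a, Kif7 and Kifc2, if the light chains are left aside. Kif26b, Kif3b and Kif13b also rose. Kifc3, a minus-end motor that acts at adherens junctions and in apical transport of epithelial cells, stood at 14.7 in cervical loop cells, 59.9 in secretory and 17.3 in maturation ameloblasts. It was 4.07-fold higher (FDR = 0.000464) in secretory than in cervical loop cells and 3.46-fold lower (FDR = 0.000339) in maturation than in secretory ameloblasts per the authors' deposited table. Its relative Kifc2, best known from neurons, stood at 3.75 in cervical loop cells, 8.52 in secretory and 3.26 in maturation ameloblasts, 2.27-fold higher (FDR = 0.00799) in secretory than in cervical loop cells per the authors' deposited table. Both minus-end motors were highest in the secretory stage and close to their cervical loop level in maturation. Kif26a, an atypical kinesin without ATPase activity that acts in signalling, stood at 76.1 in cervical loop cells, 261 in secretory and 126 in maturation ameloblasts, 3.43-fold higher (FDR = 0.000546) in secretory than in cervical loop cells per the authors' deposited table. Its paralog Kif26b stood at 60.0 in cervical loop cells, 94.3 in secretory and 31.2 in maturation ameloblasts. It was 1.57-fold higher (FDR = 0.0146) in secretory than in cervical loop cells and 3.02-fold lower (FDR = 0.000546) in maturation than in secretory ameloblasts per the authors' deposited table. The paralogs parted in maturation against cervical loop cells, where Kif26a was 1.65-fold higher (FDR = 0.00435) and Kif26b 1.92-fold lower (FDR = 0.00212) per the authors' deposited table.

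Kif7, the kinesin that organises the tip of the primary cilium for hedgehog signalling, stood at 26.2 in cervical loop cells, 60.7 in secretory and 17.2 in maturation ameloblasts. It was 2.31-fold higher (FDR = 0.00410) in secretory than in cervical loop cells and 3.52-fold lower (FDR = 0.000747) in maturation than in secretory ameloblasts per the authors' deposited table. The motors that carry material into the cilium changed less. Kif3a, which pairs with Kif3b in this task, stood at 14.002 in cervical loop cells, 10.8 in secretory and 10.5 in maturation ameloblasts, 1.30-fold lower (FDR = 0.0212) in secretory than in cervical loop cells per the authors' deposited table. Kif3b stood at 19.0 in cervical loop cells, 21.5 in secretory and 23.5 in maturation ameloblasts, 1.13-fold higher (FDR = 0.0491) in the same pair per the authors' deposited table. Kif3c was 1.41-fold lower (FDR = 0.0115) and Kifap3, the adaptor of the Kif3 motor, 1.46-fold higher (FDR = 0.00585) in secretory than in cervical loop cells per the authors' deposited table. None of the 4 kinesin-2 genes, Kif17 included, passed between maturation and secretory ameloblasts, with FDRs from 0.102 to 0.822 per the authors' deposited table. Of 17 measured genes of intraflagellar transport, 1 rose and 7 fell in secretory against cervical loop cells, and 2 rose and 6 fell in maturation against secretory ameloblasts. In either direction, 8 of 17 is near the 41.8% and 42.9% of all genes changed in these pairs. Falls alone were more frequent than over all genes, where 25.2% and 21.1% fell. In maturation against cervical loop cells 1 of the 17 rose and 11 fell, where 24.1% of all genes rose and 33.7% fell. These counts were not tested.

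Light chains couple kinesin-1 to cargo, and 3 of 4 rose in secretory ameloblasts against cervical loop cells while no heavy chain did (16.5% of all genes rose in this pair). Klc4 stood at 13.4 in cervical loop cells, 34.9 in secretory and 22.0 in maturation ameloblasts, 2.60-fold higher (FDR = 0.00119) in secretory than in cervical loop cells per the authors' deposited table. Klc2 stood at 16.6 in cervical loop cells, 26.7 in secretory and 35.9 in maturation ameloblasts, 1.61-fold higher (FDR = 0.000424) in the same pair per the authors' deposited table. Klc2 was higher at each later stage, whereas Klc4 was highest in the secretory stage. Klc1 stood at 43.9 in cervical loop cells, 43.3 in secretory and 63.3 in maturation ameloblasts and Klc3 at 1.45 in cervical loop cells, 2.35 in secretory and 2.39 in maturation ameloblasts. In maturation against cervical loop cells, where 24.1% of all genes rose, all 4 did, from 1.44-fold higher (Klc1) to 2.17-fold higher (Klc2) per the authors' deposited table. Of the heavy chains, the ubiquitous Kif5b stood at 64.8 in cervical loop cells, 64.6 in secretory and 88.5 in maturation ameloblasts, with FDR = 0.961 in secretory against cervical loop cells and 1.37-fold higher (FDR = 0.0172) in maturation than in secretory ameloblasts per the authors' deposited table. Its neuronal relatives were lower in secretory cells. Kif5c stood at 7.33 in cervical loop cells, 2.30 in secretory and 5.29 in maturation ameloblasts, 3.19-fold lower (FDR = 0.00370) in secretory than in cervical loop cells per the authors' deposited table. Kif5a stood at 3.42 in cervical loop cells, 1.16 in secretory and 1.39 in maturation ameloblasts, 2.95-fold lower (FDR = 0.0182) in the same pair per the authors' deposited table.

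Kif21a, Kif21b and Kif1a fell too. Kif21a and Kif21b, which halt the growth of microtubule ends, stood at 13.2 in cervical loop cells, 3.76 in secretory and 17.4 in maturation ameloblasts, and at 3.34 in cervical loop cells, 1.61 in secretory and 5.83 in maturation ameloblasts. They were 3.52-fold lower (FDR = 0.00801) and 2.07-fold lower (FDR = 0.0107) in secretory than in cervical loop cells per the authors' deposited table. Both were lowest in the secretory stage. Kif1a, a carrier of synaptic vesicle precursors, stood at 6.25 in cervical loop cells, 4.03 in secretory and 2.74 in maturation ameloblasts, and was lower at each later stage. Beside these genes, 2 of 11 measured nerve and Schwann cell markers rose and 5 fell in secretory against cervical loop cells. In this pair 16.5% of all genes rose and 25.2% fell. The median log2 ratio of the markers was -0.09, against -0.14 over all genes. Their sum was 142 in secretory and 207 in cervical loop cells (94.2 in maturation). Ncam1 alone, at 73.3 in secretory and 145 in cervical loop cells, was the larger part of both of these sums. The neurofilament gene Nefl was at or under 0.186 in every stage. The part of these markers in these results was not tested. Kif24, which acts at centrioles and restrains cilium assembly, stood at 4.82 in cervical loop cells, 0.606 in secretory and 0.725 in maturation ameloblasts, 7.95-fold lower (FDR = 0.00141) in secretory than in cervical loop cells per the authors' deposited table. As its later means are under 1, its log2 ratio of -2.99 was -1.86 with 1 added to both means.

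**Figure D3:**
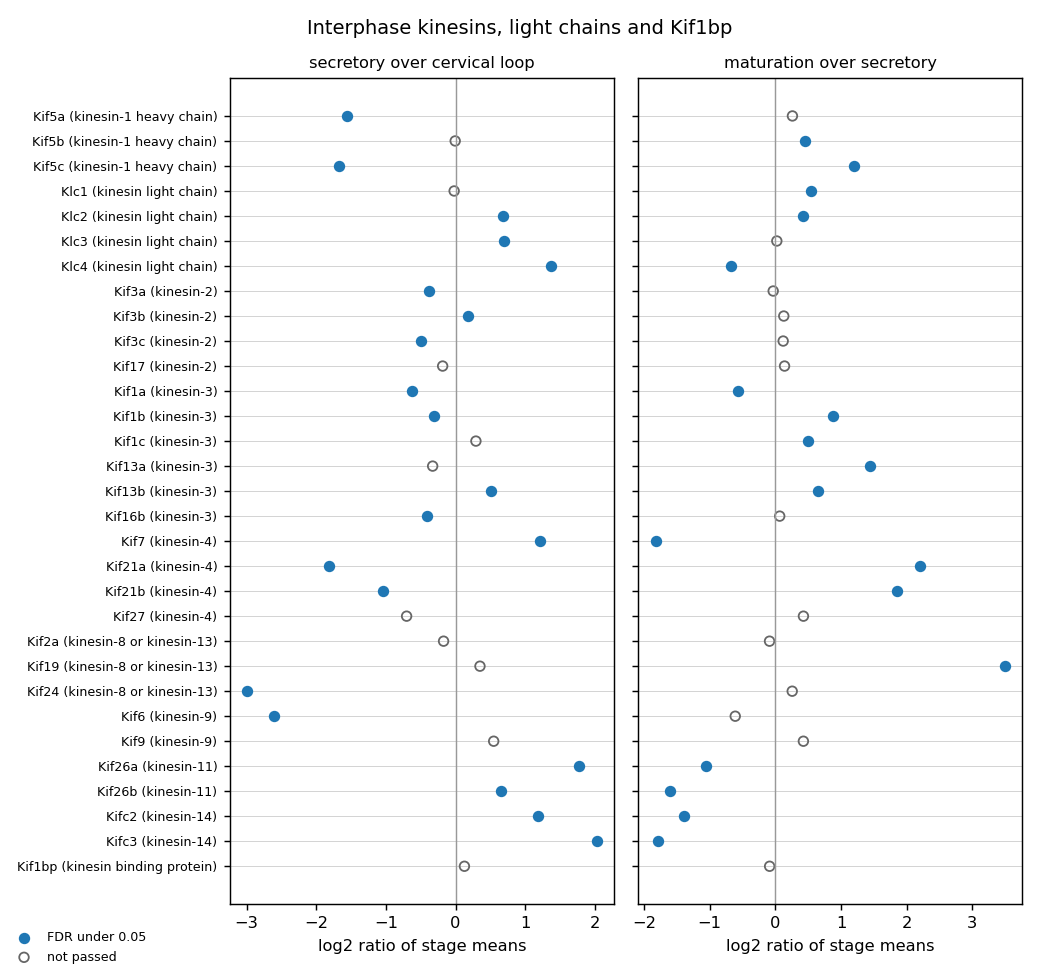
Log2 ratio of the authors' means for the 31 interphase kinesin genes, secretory over cervical loop (left) and maturation over secretory (right); filled points passed an FDR of 0.05 and open points did not. Kifc3, Kif26a, Kif7 and Kifc2 lie to the right in the first panel and to the left in the second, and Kif21a, Kif21b and Kif5c the other way round.

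Between maturation and secretory ameloblasts, 11 interphase kinesins rose, 7 fell and 13 did not pass (58.1% changed, against 42.9% of all genes). The kinesin-3 genes, carriers of endosomes and other vesicles, included 4 of 6 that rose and 1 that fell. Kif13a, which moves recycling endosomes and vesicles of the trans-Golgi network, stood at 26.7 in cervical loop cells, 21.3 in secretory and 57.7 in maturation ameloblasts. It was 2.71-fold higher (FDR = 0.000479) in maturation than in secretory ameloblasts per the authors' deposited table. Kif13b stood at 22.8 in cervical loop cells, 32.3 in secretory and 51.0 in maturation ameloblasts, 1.58-fold higher (FDR = 0.00306) in the same pair per the authors' deposited table. Kif1b, a carrier of mitochondria and vesicles, stood at 86.5 in cervical loop cells, 69.9 in secretory and 129 in maturation ameloblasts, 1.85-fold higher (FDR = 0.000242) per the authors' deposited table. These 3, and Kif1c (52.6 in cervical loop cells, 64.4 in secretory and 90.8 in maturation ameloblasts), had their highest mean in maturation. Kif16b, the motor of early endosomes, did not follow, at 19.0 in cervical loop cells, 14.2 in secretory and 14.9 in maturation ameloblasts, with FDR = 0.543 in maturation against secretory ameloblasts per the authors' deposited table. Kif1a fell in this pair, 1.47-fold lower (FDR = 0.0297) per the authors' deposited table.

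Kif19 had the largest ratio of the 31 interphase genes in maturation against secretory ameloblasts. Known for trimming microtubules at the tips of motile cilia, it stood at 0.200 in cervical loop cells, 0.255 in secretory and 2.87 in maturation ameloblasts, 11.3-fold higher (FDR = 0.000656) in maturation than in secretory ameloblasts per the authors' deposited table. The log2 ratio of 3.50 was 1.63 with 1 added to both means, since the earlier means are low. Of the multiciliated-cell markers, Ccdc39 and Tekt1 were measured and neither rose in this pair, with sums of 3.68 in maturation and 4.80 in secretory ameloblasts. Of 13 genes of axonemal dynein, 3 rose and 1 fell in this pair, where 21.8% of all genes rose and 42.9% changed, so these counts lie near or below the background. Kif21a and Kif21b had their highest means in maturation, 4.62-fold higher (FDR = 0.00313) and 3.62-fold higher (FDR = 0.000964) in maturation than in secretory ameloblasts per the authors' deposited table. Kif5c was 2.30-fold higher (FDR = 0.0107) in the same pair per the authors' deposited table. The 7 genes that fell were Kif7, Kif26a, Kif26b, Kifc2, Kifc3, Kif1a and the light chain gene Klc4.

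Against cervical loop cells, 13 interphase kinesins rose and 10 fell in maturation ameloblasts (74.2% changed, against 57.8% of all genes). Kif13a and Kif13b were 2.16-fold higher (FDR = 0.000632) and 2.23-fold higher (FDR = 0.000264) per the authors' deposited table. Kif1a and Kif5a were 2.28-fold lower (FDR = 0.00171) and 2.46-fold lower (FDR = 0.0261) per the authors' deposited table. Kifc3 and Kifc2 did not pass in this pair (FDR = 0.148 and FDR = 0.308 per the authors' deposited table). Kif17, Kif27, Kif6 and Kif9, known from cilia and flagella, had means under 1 in every stage, and of them Kif6 passed downward against the cervical loop in both later stages. Kif2a, a microtubule depolymerase, and Kif1bp had ratios between 0.836 and 1.09 over the 3 pairs; of these, the maturation against cervical loop ratio of Kif2a passed (FDR = 0.00858 per the authors' deposited table).

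Several markers of non-ameloblast cells were higher in maturation than in secretory ameloblasts. Besides the myeloid genes, 4 of 9 mesenchyme, 3 of 6 endothelial and 1 of 6 muscle markers rose in this pair and 0 fell, where 21.8% of all genes rose and 21.1% fell. The summed means were 14003 in maturation and 10391 in secretory ameloblasts for mesenchyme. For endothelium they were 321 in maturation and 217 in secretory ameloblasts, and for muscle 136 in maturation and 6.77 in secretory ameloblasts. Their part in the rise of kinesin, dynein and adaptor genes in maturation was not tested.

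Adaptors that hook kinesins to cargo were measured in 21 genes, Kif1bp among them. In secretory against cervical loop cells 8 rose and 2 fell, and in maturation against secretory ameloblasts 6 rose and 5 fell. In either direction these counts lie near the shares of all genes that changed, 41.8% and 42.9%. By direction, 16.5% of all genes rose and 25.2% fell in the first pair, so rises were more frequent among the adaptors. In the second pair 21.8% of all genes rose and 21.1% fell. In maturation against cervical loop cells 9 adaptors rose and 1 fell, where 24.1% of all genes rose and 33.7% fell. These counts were not tested. Clstn1, calsyntenin-1, which binds kinesin light chains, stood at 91.8 in cervical loop cells, 575 in secretory and 183 in maturation ameloblasts, 6.26-fold higher (FDR = 0.000645) in secretory than in cervical loop cells per the authors' deposited table. Its profile peaked in the secretory stage, as that of Klc4 did. Kidins220, a membrane protein carried by kinesin-1, stood at 110.2 in cervical loop cells, 221 in secretory and 973 in maturation ameloblasts, 4.41-fold higher (FDR = 0.00146) in maturation than in secretory ameloblasts per the authors' deposited table. Map7, which recruits kinesin-1 to microtubules, stood at 4.02 in cervical loop cells, 4.93 in secretory and 21.6 in maturation ameloblasts, 4.38-fold higher (FDR = 0.000839) in the same pair per the authors' deposited table. Both were highest in maturation, the stage in which Kif5b also had its highest mean.

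The chains of cytoplasmic dynein did not move as a block. Of 25 genes of dynein, dynactin and their regulators, 9 rose, 7 fell and 9 did not pass in secretory against cervical loop cells (64.0% changed, against 41.8% of all genes). In maturation against secretory ameloblasts 8 rose and 7 fell (60.0%, against 42.9%). In maturation against cervical loop cells 7 rose and 5 fell (48.0%), a smaller share than the 57.8% of all genes.

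Dync1h1, the heavy chain that carries the motor, stood at 377 in cervical loop cells, 649 in secretory and 409 in maturation ameloblasts. It was 1.72-fold higher (FDR = 0.00175) in secretory than in cervical loop cells and 1.59-fold lower (FDR = 0.00221) in maturation than in secretory ameloblasts per the authors' deposited table. Dync1li2, a light intermediate chain that binds adaptors, stood at 76.0 in cervical loop cells, 132 in secretory and 84.6 in maturation ameloblasts, 1.73-fold higher (FDR = 0.000750) in secretory than in cervical loop cells and 1.55-fold lower (FDR = 0.000950) in maturation than in secretory ameloblasts per the authors' deposited table. Both were highest in the secretory stage. The paralog Dync1li1 took another course, at 18.5 in cervical loop cells, 21.5 in secretory and 27.5 in maturation ameloblasts, and was 1.28-fold higher (FDR = 0.00481) in maturation than in secretory ameloblasts per the authors' deposited table. The light intermediate chains moved in opposite directions in this pair. The intermediate chains also differed. Dync1i2, the ubiquitous form, stood at 73.1 in cervical loop cells, 64.1 in secretory and 92.8 in maturation ameloblasts, 1.45-fold higher (FDR = 0.00154) in maturation than in secretory ameloblasts per the authors' deposited table. Dync1i1, the form known from neurons, stood at 4.68 in cervical loop cells, 2.09 in secretory and 0.532 in maturation ameloblasts, 3.94-fold lower (FDR = 0.000350) in the same pair per the authors' deposited table. The log2 ratio of Dync1i1, -1.98, was -1.01 with 1 added to both means. Of the 11 nerve and Schwann cell markers, 3 rose and 2 fell in this pair, where 21.8% of all genes rose and 21.1% fell. Their sum was 94.2 in maturation and 142 in secretory ameloblasts, but their median log2 ratio was 0.83, against 0.005 over all genes. The part of these markers in the Dync1i1 result was not tested.

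Dynein-2 is the motor that returns cargo from the tip of the cilium. Both of its genes in the set were lower outside the cervical loop. Its heavy chain gene Dync2h1 stood at 63.6 in cervical loop cells, 35.2 in secretory and 29.6 in maturation ameloblasts, 1.81-fold lower (FDR = 0.00300) in secretory than in cervical loop cells and 2.15-fold lower (FDR = 0.000575) in maturation than in cervical loop cells per the authors' deposited table. Dync2li1 stood at 11.6 in cervical loop cells, 8.49 in secretory and 7.62 in maturation ameloblasts, 1.36-fold lower (FDR = 0.00753) in secretory than in cervical loop cells per the authors' deposited table. Neither passed between maturation and secretory ameloblasts (FDR = 0.125 and FDR = 0.196 per the authors' deposited table). Of the dynein-2 intermediate chains, which are listed under other symbols, Wdr34 was 1.67-fold lower (FDR = 0.0409) and Wdr60 1.39-fold higher (FDR = 0.0198) in secretory than in cervical loop cells per the authors' deposited table.

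Light chain paralogs differed in the stage of their highest mean. Dynll1 and Dynll2 encode nearly identical LC8 light chains, which also serve proteins outside dynein. Dynll1 stood at 76.7 in cervical loop cells, 115 in secretory and 70.1 in maturation ameloblasts, 1.49-fold higher (FDR = 0.00477) in secretory than in cervical loop cells and 1.63-fold lower (FDR = 0.00181) in maturation than in secretory ameloblasts per the authors' deposited table. Dynll2 stood at 30.2 in cervical loop cells, 32.1 in secretory and 48.5 in maturation ameloblasts, with FDR = 0.487 in secretory against cervical loop cells and 1.51-fold higher (FDR = 0.00464) in maturation than in secretory ameloblasts per the authors' deposited table. Dynll1 was highest in the secretory stage and Dynll2 in maturation. Of the Tctex-type chains, Dynlt1 stood at 26.0 in cervical loop cells, 15.6 in secretory and 28.2 in maturation ameloblasts, 1.66-fold lower (FDR = 0.00387) in secretory than in cervical loop cells per the authors' deposited table. Dynlt3 stood at 12.6 in cervical loop cells, 16.9 in secretory and 30.9 in maturation ameloblasts, 1.83-fold higher (FDR = 0.0178) in maturation than in secretory ameloblasts per the authors' deposited table. The RefSeq table lists pseudogenes of Dynlt1, and pseudogenes and further copies of Dynll1, so reads may be split among them and the values of both genes are uncertain. Dynlrb1, the roadblock chain, stood at 22.8 in cervical loop cells, 23.5 in secretory and 24.4 in maturation ameloblasts.

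Dynactin genes had small ratios. Of the 6 genes 1 rose, 1 fell and 4 did not pass in each pair of stages. That is 33.3%, below the share of all genes that changed in each pair (41.8% in secretory against cervical loop cells, 42.9% in maturation against secretory ameloblasts and 57.8% in maturation against cervical loop cells). Dctn1, whose p150Glued protein grips microtubules, stood at 55.3 in cervical loop cells, 69.2 in secretory and 47.6 in maturation ameloblasts, 1.25-fold higher (FDR = 0.0446) in secretory than in cervical loop cells and 1.45-fold lower (FDR = 0.00468) in maturation than in secretory ameloblasts per the authors' deposited table. Dctn2, dynamitin, went the other way at 39.8 in cervical loop cells, 34.4 in secretory and 42.1 in maturation ameloblasts, 1.15-fold lower (FDR = 0.0286) in secretory than in cervical loop cells per the authors' deposited table. Dctn3, Dctn4, Dctn5 and Dctn6 had ratios from 0.875 to 1.35 over the 3 pairs. Of these, Dctn6 was 1.35-fold higher (FDR = 0.00762) and Dctn4 1.14-fold lower (FDR = 0.0465) in maturation than in cervical loop cells per the authors' deposited table. Among the other proteins of the dynactin filament, Actr1a did not pass in any pair of stages and Actr1b, its relative, stood at 33.1 in cervical loop cells, 44.7 in secretory and 58.5 in maturation ameloblasts.

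**Figure D4:**
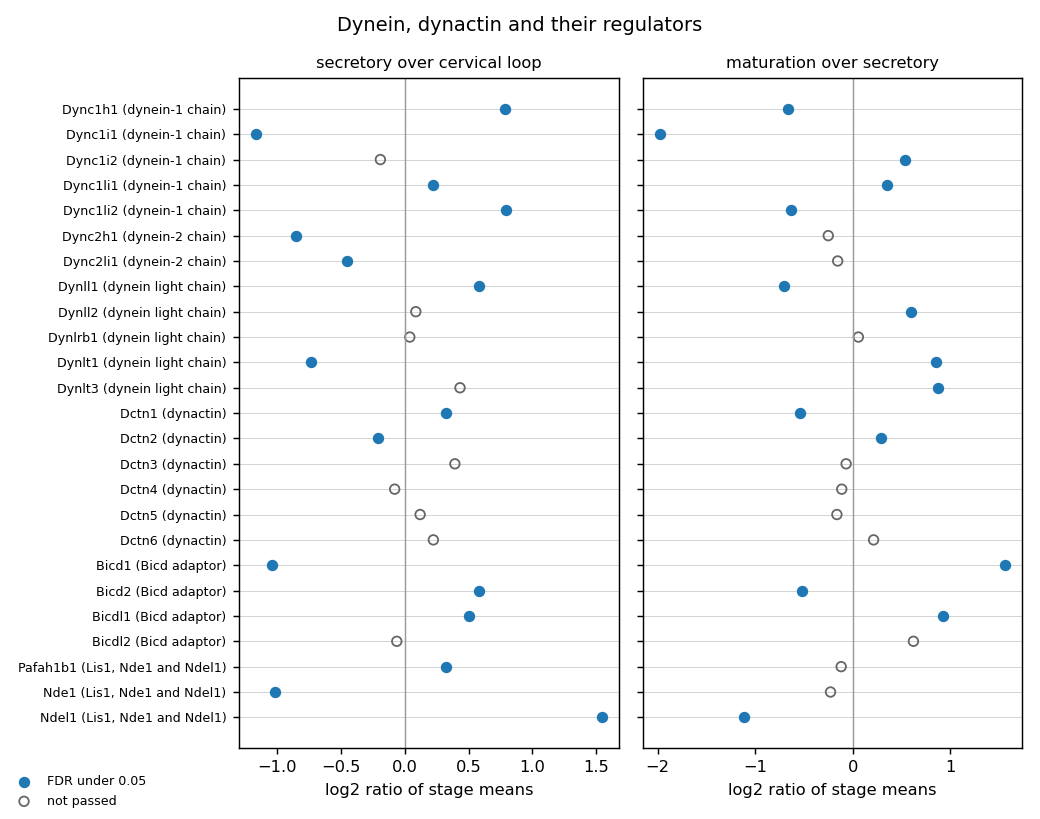
Log2 ratio of the authors' means for the 25 genes of dynein, dynactin and their regulators, secretory over cervical loop (left) and maturation over secretory (right); filled points passed an FDR of 0.05 and open points did not. Dync1h1, Dync1li2, Dynll1, Dctn1, Bicd2 and Ndel1 lie right of 0 in the first panel and left of it in the second, while Bicd1 and Dynlt1 do the opposite.

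Of the dynein regulators, Ndel1 had the largest ratio in secretory against cervical loop cells. Ndel1 stood at 29.8 in cervical loop cells, 86.7 in secretory and 40.0 in maturation ameloblasts. It was 2.91-fold higher (FDR = 0.00102) in secretory than in cervical loop cells and 2.16-fold lower (FDR = 0.00223) in maturation than in secretory ameloblasts per the authors' deposited table. Its paralog Nde1, known for its need in dividing neural progenitors, stood at 35.1 in cervical loop cells, 17.4 in secretory and 14.9 in maturation ameloblasts, 2.02-fold lower (FDR = 0.00112) in secretory than in cervical loop cells per the authors' deposited table. Nde1 was highest in the cervical loop and Ndel1 in the secretory stage. Lis1 itself, Pafah1b1, stood at 149 in cervical loop cells, 187 in secretory and 172 in maturation ameloblasts, 1.25-fold higher (FDR = 0.0274) in secretory than in cervical loop cells per the authors' deposited table, and did not pass in the other pairs.

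Bicd adaptors split likewise. Bicd2, which links dynein to Rab6 vesicles of the Golgi and to the nuclear envelope, stood at 47.1 in cervical loop cells, 70.5 in secretory and 49.0 in maturation ameloblasts, 1.497-fold higher (FDR = 0.00280) in secretory than in cervical loop cells and 1.44-fold lower (FDR = 0.00277) in maturation than in secretory ameloblasts per the authors' deposited table. Bicd1 was lowest where Bicd2 was highest, at 5.80 in cervical loop cells, 2.83 in secretory and 8.34 in maturation ameloblasts, 2.95-fold higher (FDR = 0.00238) in maturation than in secretory ameloblasts per the authors' deposited table. Bicdl1, an adaptor of Rab6 secretory vesicles, stood at 10.4 in cervical loop cells, 14.8 in secretory and 28.1 in maturation ameloblasts, 1.90-fold higher (FDR = 0.00306) in the same pair per the authors' deposited table. Bicdl2 did not pass in any pair. Of 18 measured partners of dynein and dynactin, 6 rose and 3 fell in secretory against cervical loop cells, and 2 rose and 5 fell in maturation against secretory ameloblasts. In either direction these counts lie near the shares of all genes that changed (41.8% and 42.9%). By direction, 16.5% of all genes rose and 25.2% fell in the first pair, and 21.8% rose and 21.1% fell in the second. In maturation against cervical loop cells 5 partners rose and 6 fell, where 24.1% of all genes rose and 33.7% fell. Ninein, Nin, an anchor of microtubule minus ends and dynein adaptor, stood at 15.5 in cervical loop cells, 65.1 in secretory and 9.32 in maturation ameloblasts, 4.21-fold higher (FDR = 0.000992) in secretory than in cervical loop cells and 6.99-fold lower (FDR = 0.000307) in maturation than in secretory ameloblasts per the authors' deposited table. Rab11fip3, which ties dynein to recycling endosomes, stood at 18.1 in cervical loop cells, 39.2 in secretory and 15.3 in maturation ameloblasts, and Hook1, an adaptor of endosomes, at 2.34 in cervical loop cells, 0.527 in secretory and 3.56 in maturation ameloblasts. Nin and Rab11fip3 were highest and Hook1 lowest in the secretory stage.

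Isoform tables held 33 of the 68 genes, with 91 transcripts. A change in isoform make-up passed an FDR of 0.05 for Bicd2 and Kif1b in secretory against cervical loop cells (2 of 33 genes, against 1.19% of 4050 genes tested), for Bicd2 in maturation against secretory ameloblasts (1 of 33, against 1.8% of 4051) and for Pafah1b1 in maturation against cervical loop cells (1 of 33, against 2.79% of 4050). Of the 2 Bicd2 transcripts, 1 passed on its own. Bicd2-202 stood at 41.2 in secretory and 16.6 in cervical loop cells (FDR = 0.00208 for the transcript), and at 14.4 in maturation against 41.1 in secretory ameloblasts (FDR = 9.73e-05), per the authors' deposited table. Bicd2-201 stood at 29.4 in secretory and 31.1 in cervical loop cells (FDR = 0.777), and at 35.1 in maturation ameloblasts (FDR = 0.262 against secretory), per the authors' deposited table. So Bicd2-202 was high in the secretory stage alone, and Bicd2-201 did not pass in either pair. For the gene as a whole, the isoform FDR was 0.0461 in secretory against cervical loop cells and 0.00181 in maturation against secretory ameloblasts per the authors' deposited table.

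Kif1b had 7 transcripts, of which Kif1b-203 and Kif1b-204 carried identical values and could not be told apart. In secretory against cervical loop cells (isoform FDR = 0.0263 per the authors' deposited table), Kif1b-206 stood at 0.784 in secretory and 2.59 in cervical loop cells (FDR = 0.00366), and Kif1b-205 at 13.9 and 23.4 in the same order (FDR = 0.244). Kif1b-207 stood at 0.0237 in secretory and 0.554 in cervical loop cells (FDR = 0.000856 per the authors' deposited table), a secretory value that the table for maturation against secretory ameloblasts gives as -0.0828, below 0. Its cervical loop value is 0.139 in the table for maturation against cervical loop cells, so each table holds its own transcript means and the values of this transcript are uncertain. Kif1b-201 stood at 21.8 in secretory and 21.5 in cervical loop cells, with FDR = 0.990 per the authors' deposited table. In maturation against cervical loop cells the isoform FDR of Kif1b was 0.0555 per the authors' deposited table, just short of the threshold. For Pafah1b1 (isoform FDR = 0.0137 per the authors' deposited table), Pafah1b1-202 stood at 2.08 in maturation and 2.83 in cervical loop cells, while Pafah1b1-201 stood at 65.4 and 54.6 and Pafah1b1-203 at 106 and 89.8, in the same order. The mean of Pafah1b1-202 was lower in maturation (FDR = 0.00265 for the transcript, per the authors' deposited table). Those of Pafah1b1-201 and Pafah1b1-203 were higher but did not pass on their own (FDR = 0.172 and FDR = 0.158).

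**Figure D5:**
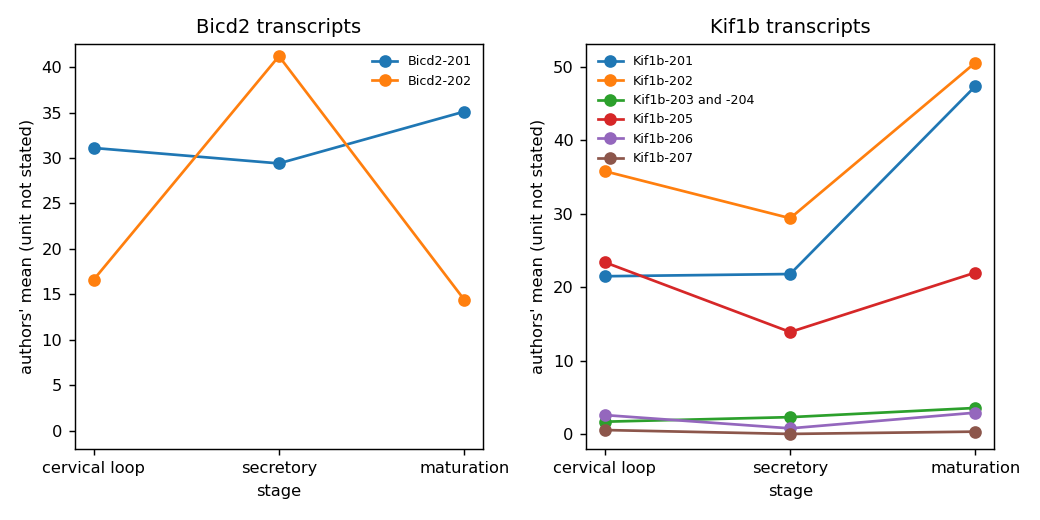
Authors' mean (linear axis, unit not stated) of the transcripts of Bicd2 (left) and Kif1b (right) in cervical loop cells, secretory and maturation ameloblasts; each line is 1 transcript and each point 1 deposited mean, with no error available. Bicd2-202 stands at 41.2 in secretory ameloblasts against 16.6 in cervical loop cells, while Bicd2-201 stays between 29.4 and 35.1.

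Single transcripts of motor genes passed an FDR of 0.05 in 32 of 91 cases in secretory against cervical loop cells (35.2%, against 16.0% of 9949 transcripts), in 20 of 91 in maturation against secretory ameloblasts (22.0%, against 17.0%) and in 26 of 91 in maturation against cervical loop cells (28.6%, against 25.1%). These counts pool mitotic kinesins with the other motors. Every transcript of Kif2c, Kif4a, Kif18b, Kif20b, Kif23 and Kifc1 passed in maturation against cervical loop cells, all of them lower in maturation. The pooled shares therefore do not give those of the other motors. In Kif26a and Ndel1, which had no isoform call, both transcripts rose in secretory against cervical loop cells. Kif26a-202 stood at 182 in secretory and 49.6 in cervical loop cells, and Kif26a-201 at 79.0 and 25.2 in the same order. For Ndel1, Ndel1-201 stood at 69.8 in secretory and 28.1 in cervical loop cells, and Ndel1-202 at 16.1 and 5.80, in the same order. The cervical loop mean of Ndel1-202 is 3.50 in the table for maturation against cervical loop cells, so the size of its ratio depends on the table.

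Taking each gene's highest mean, 28 of the 68 motor genes peaked in the cervical loop, 16 in the secretory and 24 in the maturation stage (41.2%, 23.5% and 35.3%, where all genes gave 44.4%, 22.3% and 33.4%). The shares over the whole set were near those of all genes, and the classes differed within it. All 12 mitotic kinesins peaked in the cervical loop. Interphase kinesins peaked there in 11 of 31 cases, in the secretory stage in 7 and in maturation in 13. Dynein, dynactin and regulator genes peaked in the cervical loop in 5 of 25 cases, in the secretory stage in 9 and in maturation in 11. These counts describe the means and were not tested.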

How the data were processed

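RNA of 3 enamel organ populations was measured by single-end sequencing, with 25000000 reads of 75 bases per library per the labels' protocols. The submitters' processing notes name Partek, STAR 2.5.3a and rn6, a rat genome build. For annotation, strandedness, gene filter, normalization and model terms, the entry is: not given in the sources used here. The authors deposited least-squares means per gene and stage, other values of no stated unit, so their log2 ratios were computed here, and the depth behind them is unknown: no counting interval is given. The authors also deposited p-values and FDRs per pair of stages, which were used as they stand; adjusting the p-values again by Benjamini-Hochberg over 16516 genes changed 0 calls. Only the Benjamini-Hochberg step was tested on simulated data, with large added shifts, which does not test the deposited p-values or means. The sources do not say how many libraries stand behind each mean.

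Genes were taken by symbol; 4 had means under 1 in every stage. No filter on low values was applied in the main results, and a mean of 0.1 or less counted as the floor. Members, classes and lists were chosen with earlier results of these data known. Genes are named by class: the member with the largest mean, the members past the threshold with the largest ratios and a mean of at least 1 in a stage (up to 4 per direction in mitotic and interphase kinesins, up to 2 elsewhere, per pair of stages), their close paralogs, and isoform calls. Other members named (such as Kif1c, Kif16b and Kif2a), partner genes and further transcripts were chosen after their values were seen. Motifs were searched in RefSeq promoter windows. Python 3.11.15, pandas 2.3.3 and numpy 2.4.6 were used. Alternatives were an FDR of 0.01, genes with a mean of at least 1, a ratio of at least 1.5, division by the median ratio, a pseudocount of 1 and the per-stage lists. Without strand information, reads of a motor gene and of an overlapping gene on the other strand cannot be told apart.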

Additional observations from a re-analysis of the deposited data

How the results depend on the processing

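All 12 mitotic kinesins fell in secretory against cervical loop cells under each alternative run. In maturation against cervical loop cells the count was 12 under each but the FDR of 0.01, which left 11 without Kif14. With an FDR of 0.01, the interphase kinesins that fell numbered 5 in place of 11 in secretory and 6 in place of 10 in maturation against cervical loop cells, and the dynein genes that rose 5 in place of 9 in secretory against cervical loop cells. Isoform calls then numbered 0 in place of 2 in secretory and 0 in place of 1 in maturation against cervical loop cells. Of the 33 genes, 11 and 6 had an unadjusted p under 0.05 in the authors' deposited tables. The share of all genes at that p was not computed, so these unadjusted counts cannot be read against a background. A ratio of at least 1.5 on top of the FDR left 7 interphase kinesins falling and 3 dynein genes rising in secretory against cervical loop cells, 7 interphase kinesins (of 11) and 5 dynein genes (of 8) rising in maturation against secretory ameloblasts, and 6 interphase kinesins falling and 3 dynein genes (of 7) rising in maturation against cervical loop cells. Over all genes the ratio of at least 1.5 left 1797 of 2727 rises and 2869 of 4169 falls in secretory against cervical loop cells. The 3 of 9 dynein rises left in that pair were a smaller part. Over all genes it left 2473 of 3598 rises in maturation against secretory ameloblasts. Against the cervical loop, 2811 of 3987 rises and 3958 of 5567 falls were left in maturation. An FDR of 0.01 left 4047 of 6896 calls over all genes in secretory against cervical loop cells and 4164 of 7089 in maturation against secretory ameloblasts. In maturation against cervical loop cells it left 6574 of 9554 calls, and 3864 of 5567 falls. Dividing by the median ratio of all genes, a log2 shift of -0.14 in secretory and -0.12 in maturation against cervical loop cells, turned the direction of no called motor gene. With 1 added to both means, log2 ratios in maturation against cervical loop cells became 1.69 for Kif19, -1.75 for Kif24 and -1.89 for Dync1i1, against 3.85, -2.73 and -3.14 without it. No paired analysis was possible because 1 mean per stage is at hand, so leaving out single rats was not possible either.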
